A study of Mus musculus with 6 samples.

Results

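A list of 40 named genes of mitosis and DNA replication was followed in the cochlear lateral wall of young and old mice. The genes were taken as a list of names, and 39 of the 40 were measured by a probe set with a single gene symbol in the array's annotation, out of 18193 genes measured in all. Ccnb1, the cyclin B1 gene, had no such probe set, so its signal is not analysed here. Each gene is represented by its probe set with the highest mean signal over all 6 arrays. The lateral wall, made up of stria vascularis and spiral ligament, had been microdissected from the cochleae of male and female CBA/CaJ mice. The group YoungAdult was 1 to 3 months old and the group OldAdult 1.5 years old, with 3 arrays each and no treatment or engineered allele named in the labels. Messenger RNA was measured on 1-colour Affymetrix arrays, and young was compared with old tissue.

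Cells that prepare to divide first license their replication origins. Cdc6 and Cdt1 load the Mcm2 to Mcm7 helicase ring onto DNA, geminin later blocks Cdt1, and the sliding clamp Pcna and the enzymes of nucleotide supply serve the copying itself. In mitosis the cyclin-dependent kinase Cdk1 with its cyclins, the Aurora and Polo kinases, the spindle checkpoint, the kinesin motors and the anaphase-promoting complex act in turn to separate the chromosomes. Most cells of the adult lateral wall, such as marginal and intermediate cells of the stria, do not divide under normal conditions, whereas blood cell precursors of the marrow do. Mitotic genes are commonly repressed in resting cells through a promoter element called CHR, and replication genes through E2F sites.

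Values are deposited log2 signals. Each mean is given ± SD with n = 3 arrays, each difference is old minus young in log2 units ± its standard error from limma, and adjusted p-values are those of limma over all 45037 probe sets. A gene is called when its adjusted p is under 0.05. A member is termed bright where its mean over 6 arrays lay above the median of all probe sets, 6.28, and dim otherwise, which gave 13 bright and 26 dim members. Ccna2, at 6.28, lay just below that line, and Cdk1, at 6.50, was the nearest member above it. Kif23 was bright through its young arrays alone, since its old values of 5.93 to 6.03 lay below the line. Whether a dim probe set stood above background was not examined. In tissue RNA, fewer cells of a type and less RNA per cell cannot be told apart. Nothing in the labels ties a sample to its own set of animals, so the p-values cover the spread between arrays, which may be technical.

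The promoters of the members differed between the replication and the mitotic genes in the letters they hold. RefSeq windows (GRCm38.p6, 250 bases before to 50 after the gene's start) were given for 35 of the 40 genes. The windows were searched on both strands for CHR (TTTGAA or TTCGAA), E2F (TTGGCGC or TTCGCGC or TTCCCGC or TTGCCGC) and CCAAT, the element bound by NF-Y. Ccnb1, whose signal was not measured, had a window with E2F and CCAAT letters and is counted among the mitotic members. CHR letters were found for 18 of 23 mitotic members (78.3%), for 2 of 12 members of licensing, clamp and nucleotide supply (16.7%), and for 21.7% of all 27025 genes with a window. E2F letters showed the opposite order, with 3 of 23 mitotic members (13.0%), 8 of 12 replication members (66.7%) and 10.9% of all genes. CCAAT was found for 19 and 8 of these members (82.6% and 66.7%) and for 41.1% of all genes. The short motifs can overlap one another, as an E2F match and CCAAT do after the start of Mcm7. A match is a description of the letters and was not tested as a site.

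**Figure D1:**
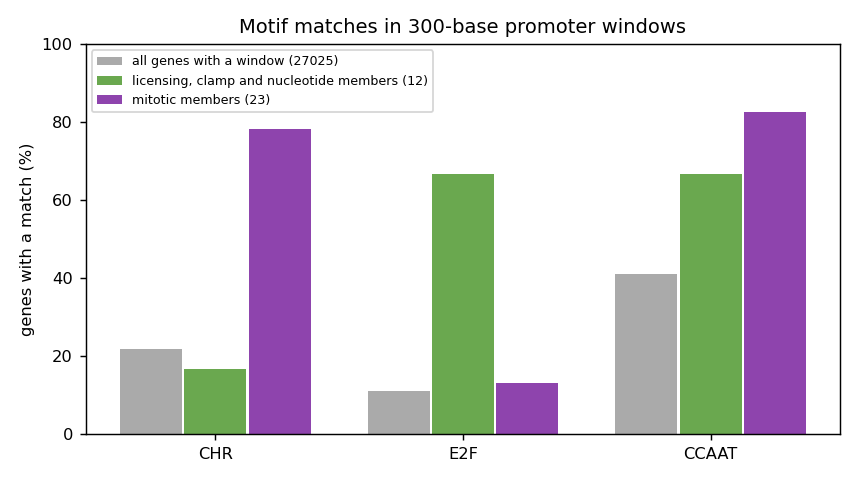
Share of genes (%) with at least 1 match to CHR, E2F or CCAAT letters in the promoter window of 300 bases, for all genes (grey), licensing, clamp and nucleotide members (green) and mitotic members (purple). CHR letters were in 78.3% of mitotic members and 16.7% of replication members, and E2F letters in 13.0% and 66.7%.

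The 200 bases before the start are shown for the 5 members whose signal fell in old tissue, described in the following paragraphs, and for Cdk1 and Mcm7, which hold all 3 motifs and were not called. Capitals mark every match to the 3 motifs on either strand, so that ATTGG is CCAAT read from the other strand, and Mcm7 is shown by 1 of its 2 windows. The stretches are chr9:61946800-61946999 (minus strand) for Kif23, chr11:117849037-117849236 (plus strand) for Birc5, chr7:135716380-135716579 (minus strand) for Mki67, chr2:119618098-119618297 (plus strand) for Nusap1, chr8:122567815-122568014 (plus strand) for Cdt1, chr10:69352913-69353112 (minus strand) for Cdk1 and chr5:138171884-138172083 (minus strand) for Mcm7, all in GRCm38.p6 and written 5′ to 3′ along the gene's strand.
Kif23: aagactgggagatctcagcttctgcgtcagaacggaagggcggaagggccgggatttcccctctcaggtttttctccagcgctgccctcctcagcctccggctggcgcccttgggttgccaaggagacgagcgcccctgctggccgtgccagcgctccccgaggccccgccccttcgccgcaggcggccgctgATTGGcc
Birc5: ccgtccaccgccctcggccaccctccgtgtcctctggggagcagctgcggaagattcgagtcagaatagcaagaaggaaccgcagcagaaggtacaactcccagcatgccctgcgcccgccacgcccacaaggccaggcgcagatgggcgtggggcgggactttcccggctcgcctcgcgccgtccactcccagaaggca
Mki67: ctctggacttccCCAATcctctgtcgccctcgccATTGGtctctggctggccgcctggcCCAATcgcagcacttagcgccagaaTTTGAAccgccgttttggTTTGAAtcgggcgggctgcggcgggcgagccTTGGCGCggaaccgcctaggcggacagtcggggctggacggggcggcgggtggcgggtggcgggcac
Nusap1: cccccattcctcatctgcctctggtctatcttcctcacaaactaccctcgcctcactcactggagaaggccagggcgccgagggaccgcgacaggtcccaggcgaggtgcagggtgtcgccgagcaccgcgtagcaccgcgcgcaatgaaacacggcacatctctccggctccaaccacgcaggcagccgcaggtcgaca
Cdt1: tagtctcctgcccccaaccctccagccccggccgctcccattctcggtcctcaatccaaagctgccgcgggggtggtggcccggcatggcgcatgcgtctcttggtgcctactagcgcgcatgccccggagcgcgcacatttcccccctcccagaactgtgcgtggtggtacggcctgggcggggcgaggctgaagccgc
Cdk1: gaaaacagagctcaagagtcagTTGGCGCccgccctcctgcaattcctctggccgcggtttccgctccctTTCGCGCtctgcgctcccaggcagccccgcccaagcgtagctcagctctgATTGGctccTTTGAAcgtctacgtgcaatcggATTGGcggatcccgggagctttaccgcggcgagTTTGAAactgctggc
Mcm7: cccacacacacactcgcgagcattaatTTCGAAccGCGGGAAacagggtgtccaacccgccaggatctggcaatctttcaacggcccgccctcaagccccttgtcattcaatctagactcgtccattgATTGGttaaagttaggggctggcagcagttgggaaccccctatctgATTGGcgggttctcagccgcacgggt
Mki67 holds all 3 motifs, with CHR letters beginning 116 and 98 bases before its start. Kif23 has CCAAT on the reverse strand 7 bases before its start, and CHR letters begin at base 3 after it. Cdt1 has E2F letters only after its start, and none of the 3 motifs was found in the windows of Birc5 and Nusap1. So the 5 members that fell do not share these letters: CHR was present in 2 of 5, as were E2F and CCAAT.

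Of the 39 measured members, 5 fell in old tissue, 0 rose and 34 did not pass. The 5 are Kif23, Birc5, Cdt1, Mki67 and Nusap1, and they include 2 bright and 3 dim members. They make up 12.8% of the members, where 4.78% of all genes were called, 2.33% lower and 2.45% higher. Among bright genes 3.17% were called lower and 3.21% higher, and among dim genes 0.863% were called lower. At an unadjusted p under 0.05, 11 members were lower and 3 higher, together 35.9% of the members against 20.7% of all genes. All 3 old values lay below all 3 young values for 12 members (30.8%) and above them for 3 (7.69%), against 9.70% and 17.0% of all genes. The first count held 3 of the 13 bright members (23.1%, against 11.8% of bright genes) and 9 of the 26 dim ones (34.6%, against 6.06% of dim genes). These bright members include Kif23, which was bright through its young arrays alone. The count of members that fell was 3 without young replicate 1, young replicate 3, old replicate 2 or old replicate 3, 4 without old replicate 1 and 5 without young replicate 2, where Ube2c was called and Nusap1 was not.

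The median difference over all members was -0.05, where that over all genes was 0.03. Leaving out young replicate 2 gave -0.12, young replicate 3 gave -0.13 and old replicate 1 gave -0.10, while leaving out young replicate 1 or old replicate 3 gave -0.03. The bright members had a median of 0.04, and 5 of 13 differences (38.5%) were negative, as were 37.9% among all bright genes. For these bright members the sign turned when young replicate 1 was left out (-0.02) and under cyclic loess (-0.00117). Their median was 0.01 after quantile normalization again, and 0.11, 0.09 and 0.07 when young replicate 2, young replicate 3 or old replicate 1 was left out. The dim members had a median of -0.18, and 20 of 26 differences (76.9%) were negative, against 49.4% among all dim genes. Averaged over all probe sets of a gene, the median of the dim members was -0.08, and it was -0.10 without young replicate 1 and -0.11 without old replicate 2.

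**Figure D2:**
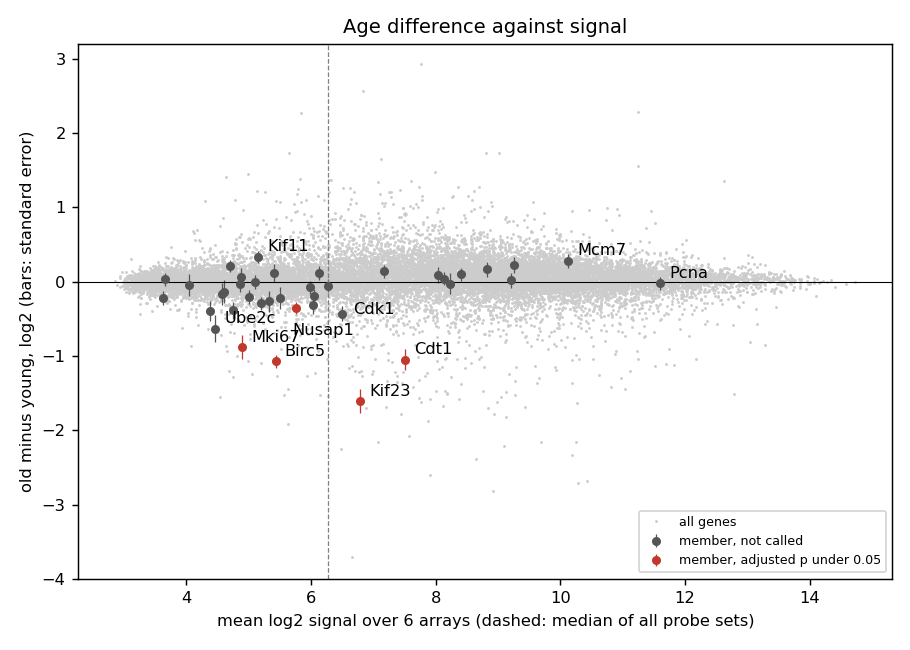
Difference between old and young (log2) against mean log2 signal over 6 arrays for all genes (grey points) and for the 39 members (circles with standard error bars, red where the adjusted p was under 0.05). The dashed line is the median signal of all probe sets. The 5 called members lie below 0, from -0.36 for Nusap1 to -1.61 for Kif23, while Pcna lies at -0.02 and Mcm7 at 0.28.

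The Mcm helicase genes, which had bright signals, gave no call. Mcm2, Mcm3, Mcm4, Mcm5 and Mcm6 had differences of -0.03 to 0.23, and their groups overlapped. Mcm7, the helicase subunit with the highest difference, had 9.80, 10.09 and 10.06 in young and 10.27, 10.23 and 10.29 in old samples. All 3 old values were higher, and young replicate 1 was the lowest of the 6. The difference of 0.28 ± 0.10 did not pass (limma adjusted p = 0.149). Its 3 other probe sets had differences of 0.07 to 0.31, and none passed. On young replicate 1, 7 of the 13 bright members had their lowest value.

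Among the factors that load this helicase, Cdt1 fell and Cdc6 did not pass. Cdt1 had 8.29, 7.87 and 7.93 in young samples and 6.74, 7.14 and 7.06 in old samples. The groups were separate, with old replicate 1 the lowest. Its mean fell from 8.03 ± 0.23 to 6.98 ± 0.21, a difference of -1.05 ± 0.14 or 2.07-fold lower (limma adjusted p = 0.00699). The adjusted p stayed under 0.05 on leaving out each array in turn, at 0.00800 to 0.0360. A second Cdt1 probe set fell by 0.86 (limma adjusted p = 0.00782). The third was dim, had 3.26 to 3.60 in young and 3.40 to 3.89 in old samples, and did not pass. Cdc6, the partner of Cdt1 in loading and a dim member, had 4.88, 4.39 and 4.45 in young and 4.11, 4.29 and 4.13 in old samples. Its old values were all below its young ones, and its difference of -0.40 ± 0.13 did not pass (limma adjusted p = 0.141).

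Geminin, the inhibitor of Cdt1, is no member of the list and was looked up after its values were seen. Gmnn had 7.59, 8.13 and 7.81 in young and 8.37, 8.27 and 8.29 in old samples. Every old value was above every young one, in the opposite direction to Cdt1. The difference of 0.47 ± 0.13 did not pass (limma adjusted p = 0.0853), except without young replicate 2 (0.0134) and with array weights (0.0252).

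Genes of the replication clamp and nucleotide supply gave no call. Pcna, the sliding clamp, had 11.49 to 11.70 in young and 11.54 to 11.68 in old samples, a difference of -0.02 ± 0.09. Rrm1, the large subunit of ribonucleotide reductase, had 8.62, 8.91 and 8.70 in young and 9.02, 8.84 and 8.87 in old samples. These values overlap, and the difference of 0.17 ± 0.10 did not pass (limma adjusted p = 0.432). The small subunit Rrm2, dim on all arrays, had 4.88, 4.80 and 5.14 in young and 4.60, 4.66 and 4.40 in old samples. Its old values were all lower, and its difference was -0.39 ± 0.11 (limma adjusted p = 0.0979). The probe sets of Rrm2 disagreed. The second, with 5.02, 4.71 and 5.33 in young and 4.01, 4.36 and 4.06 in old samples, passed with a difference of -0.88 ± 0.16 (limma adjusted p = 0.0222), and the third had -0.07. Rrm2 passed as the average of its probe sets (-0.45, limma adjusted p = 0.0418) and with array weights (0.0255). Thymidylate synthase gene Tyms and thymidine kinase gene Tk1 were dim, at 0.06 and -0.01.

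**Figure D3:**
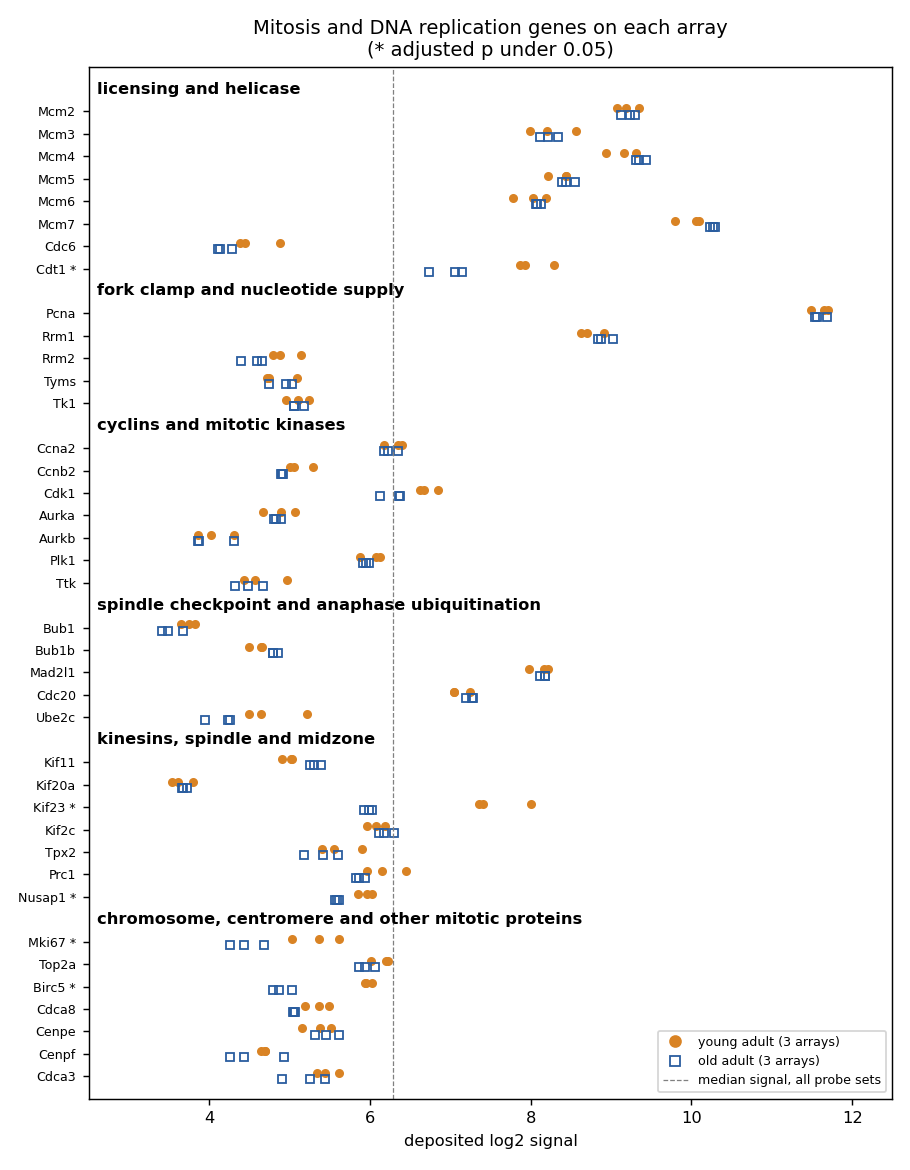
Deposited log2 signals of the 39 members on each array, grouped by role (circles young, squares old, dashed line the median signal of all probe sets, asterisks adjusted p under 0.05). For Cdt1, Kif23, Nusap1, Mki67 and Birc5 the 3 old values lie below the 3 young values, while those of most Mcm genes and Pcna overlap.

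None of the 7 measured cyclins and mitotic kinases passed, and all 7 differences were below 0, from -0.43 to -0.03. Differences below 0 made up 42.1% of all genes and 49.4% of dim genes, and 6 of these 7 members were dim. Cdk1, the kinase that drives entry into mitosis and the only bright gene among them, had 6.62, 6.67 and 6.85 in young and 6.36, 6.12 and 6.37 in old samples. The groups did not overlap. The difference of -0.43 ± 0.10 missed the threshold (limma adjusted p = 0.0520) and passed under cyclic loess (0.0457), array weights (0.0226), the filter on dim probe sets, and when other genes were averaged over their probe sets, which left the single Cdk1 probe set as it was (0.0415). Ccnb2, a B-type cyclin, had 5.01, 5.05 and 5.29 in young and 4.92, 4.90 and 4.91 in old samples, a difference of -0.21 ± 0.09. Ccna2, Aurka, Aurkb, Plk1 and Ttk, whose groups overlapped, had differences of -0.17 to -0.03.

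In the spindle checkpoint and anaphase group, 0 of 5 members passed. Mad2l1, which binds Cdc20 at unattached chromosomes, had 7.98 to 8.21 in young and 8.11 to 8.18 in old samples. Cdc20, the activator of the anaphase-promoting complex, had 7.04 to 7.24 and 7.19 to 7.28. The values of both genes overlapped, at differences of 0.04 ± 0.09 and 0.14 ± 0.09. Ube2c, the ubiquitin-conjugating enzyme of that complex, was dim, with 4.64, 4.49 and 5.22 in young and 4.24, 3.95 and 4.26 in old samples. Young replicate 3 was the highest, and all old values were lower than any young one. Its difference of -0.63 ± 0.18 did not pass (limma adjusted p = 0.0919), except without young replicate 2 (0.0430), with array weights (0.0260) and with the replicate block (0.0413). The checkpoint kinase Bub1 and its relative Bub1b had -0.22 and 0.22, both dim. The 2 other probe sets of Bub1b were at -0.04 and 0.00.

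Among kinesins and spindle proteins, Kif23 and Nusap1 fell and 5 of 7 did not pass. Kif23, the motor of the centralspindlin complex that builds the midzone for cytokinesis, had 7.36, 8.0 and 7.41 in young and 5.99, 5.93 and 6.03 in old samples. The old values were tightly grouped and well below the lowest young value, and young replicate 2 was the highest. The mean fell from 7.59 ± 0.36 to 5.98 ± 0.05, a difference of -1.61 ± 0.16 or 3.05-fold lower, the lowest among the members (limma adjusted p = 0.00232). Its adjusted p was 0.00101 to 0.0153 on leaving out each array. The Kif23 probe sets disagreed: the 2 others had means of 3.95 and 3.42 over all arrays, differences of 0.01 and -0.27, and did not pass. Averaged over its 3 probe sets, the difference was -0.62 and passed (limma adjusted p = 0.0169).

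Nusap1, a microtubule-bundling protein of the spindle, had 6.03, 5.96 and 5.85 in young and 5.56, 5.59 and 5.62 in old samples. The groups were separate, and the mean fell from 5.95 ± 0.09 to 5.59 ± 0.03 (difference -0.36 ± 0.08, limma adjusted p = 0.0442). The call was lost on leaving out any 1 of the 6 arrays, with an adjusted p of 0.0616 to 0.149. Kif11, the kinesin that pushes spindle poles apart, lay in the opposite direction, with 5.03, 4.91 and 5.02 in young and 5.26, 5.39 and 5.31 in old samples. Its difference of 0.33 ± 0.08 missed the threshold (limma adjusted p = 0.0537) and passed with arrays centred on their medians (0.0451), quantile normalization again (0.0429), cyclic loess (0.0474) and array weights (0.0241). Its 2 other probe sets were at 0.00 and -0.10. Prc1, a midzone bundling protein, was at -0.31 ± 0.12 with separate groups, and Tpx2, Kif2c and Kif20a, with overlapping groups, were at -0.22, 0.12 and 0.03.

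**Figure D4:**
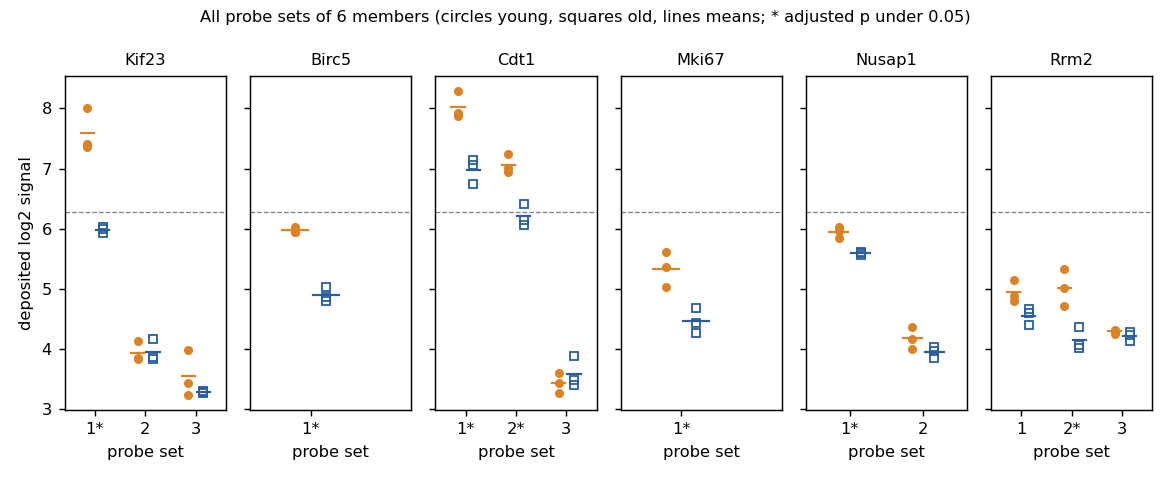
Deposited log2 signals for every probe set of Kif23, Birc5, Cdt1, Mki67, Nusap1 and Rrm2, in order of mean signal (circles young, squares old, short lines group means, dashed line the median signal of all probe sets, asterisks adjusted p under 0.05). Cdt1 had 2 called probe sets, Kif23 and Nusap1 had only the brightest called, and Rrm2 had only the second called.

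The 7 measured chromosome, centromere and other mitotic genes were all dim, and Birc5 and Mki67 among them fell. Birc5 encodes survivin, a subunit of the chromosomal passenger complex that also inhibits apoptosis. It had 5.94, 5.95 and 6.02 in young and 5.03, 4.87 and 4.80 in old samples. The 3 young values lay close together and far from the old ones. The mean fell from 5.97 ± 0.04 to 4.90 ± 0.12, a difference of -1.07 ± 0.09 or 2.10-fold lower (limma adjusted p = 0.00114), and leaving out each array gave 0.00259 to 0.0139. Birc5 had a single probe set. Its partner in the same complex, Cdca8 or borealin, had 5.19, 5.49 and 5.37 in young and 5.06, 5.07 and 5.04 in old samples, and its difference of -0.29 ± 0.09 did not pass (limma adjusted p = 0.121), except with array weights (0.0371). The kinase of the complex, Aurkb, was at -0.05 ± 0.15.

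Mki67, the gene of the proliferation marker Ki-67 that coats mitotic chromosomes, had 5.37, 5.03 and 5.61 in young and 4.68, 4.43 and 4.26 in old samples. The old values were all lower, and young replicate 3 was the highest. The mean fell from 5.34 ± 0.29 to 4.46 ± 0.21, a difference of -0.88 ± 0.16 or 1.84-fold lower (limma adjusted p = 0.0213). The adjusted p exceeded 0.05 without young replicate 1 (0.0672), young replicate 3 (0.0798), old replicate 2 (0.0573) or old replicate 3 (0.0912). Topoisomerase gene Top2a, which untangles chromosomes, had 6.22, 6.01 and 6.20 in young and 5.86, 6.06 and 5.94 in old samples, with overlap and a difference of -0.19 ± 0.09 (limma adjusted p = 0.320). A second Top2a probe set was at -0.40 with all old values below all young ones (limma adjusted p = 0.118), and another was at 0.02 with overlap. Cdca3, Cenpf and Cenpe, with overlapping groups, were at -0.26, -0.13 and 0.12.

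Over all 91 probe sets of the members, 7 were called lower (7.69%) and 0 higher, where 2.84% and 1.86% of all probe sets were. The 7 comprise both brighter Cdt1 probe sets, 1 of Rrm2, and 1 each of Kif23, Birc5, Mki67 and Nusap1. Of the 39 members, 28 had more than 1 probe set. On the 6 arrays the mean over the dim members was 5.24, 5.07 and 5.20 in young and 5.05, 4.95 and 4.93 in old samples, so that young replicate 2 and old replicate 1 came close. The mean over the bright members was 8.44, 8.63 and 8.51 in young and 8.36, 8.34 and 8.40 in old samples. These bright means include Kif23 at -1.61 and Cdt1 at -1.05, while 8 of the 13 bright differences were positive. Individual members did not peak on the same young array: Kif23 was highest on young replicate 2, Mki67 and Ube2c on young replicate 3, and Cdt1 on young replicate 1.

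Other genes of the same processes, in lists that do not contain the members, were called in 3 of 42 (7.14%, replication), 2 of 68 (2.94%, mitosis) and 2 of 28 cases (7.14%, G1), against 4.78% of all genes. Of 42 measured further replication genes, 2 rose, 1 fell and 39 did not pass, with a median of 0.10. Mcm10, which helps the helicase to fire, had 7.54, 7.27 and 6.99 in young and 6.58, 6.61 and 6.43 in old samples, and fell by 0.73 (limma adjusted p = 0.0240). The average of its 3 probe sets had a difference of -0.29 and did not pass (limma adjusted p = 0.0889). Prim1, the catalytic subunit of primase, had 8.48, 8.65 and 8.48 in young and 9.15, 9.08 and 8.94 in old samples and rose by 0.52 (limma adjusted p = 0.0192). Lig1, the ligase that joins Okazaki fragments, had 8.22, 8.19 and 8.22 in young and 8.51, 8.65 and 8.57 in old samples and rose by 0.37 (limma adjusted p = 0.0344, and 0.0605 with the replicate block). For 15 of the 42 genes (35.7%) all 3 old values lay above all 3 young values, against 17.0% of all genes and 22.8% of bright ones. The number that rose was 11 without young replicate 2 and 0 without any 1 of the other arrays, the median was 0.05 without young replicate 1, and the number that fell was 0 without any 1 of the old arrays.

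Of 68 further mitosis genes, 2 fell, 0 rose and 66 did not pass, with a median of -0.05. Leaving out young replicate 3 brought it to -0.0033, old replicate 3 to -0.0092 and young replicate 2 to -0.028, and it was 0.10 over the bright genes alone. Cenpa, the histone variant that marks centromeres, had 5.50, 5.49 and 5.74 in young and 4.88, 4.95 and 4.99 in old samples, and its difference was -0.64 ± 0.09 (limma adjusted p = 0.00989). The average of its probe sets had a difference of -0.21 and did not pass (limma adjusted p = 0.0966). Tacc3, which stabilises spindle microtubules, fell by 0.39 (limma adjusted p = 0.0412), and its call was lost with the replicate block (0.0512) and with the intensity trend and robust variance (0.0552). Both were dim, and Foxm1, a transcription factor for mitotic genes looked up after its values were seen, was at -0.06 with overlapping groups. Without young replicate 2, 4 of these genes fell and 3 rose. Without any 1 of the other arrays only Cenpa fell, and 1 gene rose without old replicate 1.

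Of 28 genes for G1 cyclins, their kinases, E2F factors and pocket proteins, 2 fell and 0 rose, with a median of -0.04. Leaving out young replicate 1 brought it to -0.014, old replicate 2 to -0.023, old replicate 3 to -0.025 and young replicate 3 to -0.061, and it was 0.01 over the bright genes alone. Ccnd2, a D-type cyclin of G1, had 11.10, 11.04 and 11.20 in young and 10.49, 10.68 and 10.43 in old samples, and fell by 0.58 (limma adjusted p = 0.0142). Tfdp2, a partner of the E2F factors, had 11.97, 11.97 and 11.92 in young and 11.60, 11.54 and 11.63 in old samples, and fell by 0.36 (limma adjusted p = 0.0322, and 0.0594 with the replicate block). The number that fell was 0 without young replicate 3, old replicate 1 or old replicate 3, and 1 without young replicate 1 or old replicate 2. Without young replicate 2, 3 fell and 3 rose.

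Markers of other cell types were looked at beside the members, and some were called in either direction. All 16 lateral wall markers, among them Kcnj10, Slc26a4, Otos and Coch, were bright and 0 were called, so the tissue label was borne out in both ages. Of 12 measured markers on the neutrophil precursor list, 8 fell and 0 rose, and their mean signal was 6.80 to 7.29 on young and 5.91 to 6.31 on old arrays. Those that fell were Mpo, Prtn3, Ngp, Camp, Ltf, S100a8, S100a9 and Chil3, whereas Elane, Ctsg, Fcnb and Ms4a3 were not called. The list was not divided by stage, so dividing precursors cannot be told from mature neutrophils. Mpo, a granule enzyme of the early precursors, fell from 7.46 ± 0.29 to 6.19 ± 0.14 (limma adjusted p = 0.00393), while Elane was dim at 6.08 ± 0.10 and 5.96 ± 0.08. Of 9 markers of erythroid precursors 1 fell, Slc4a1, at -1.23, and Hemgn, at -1.28, was not called (limma adjusted p = 0.0818). The others were at -0.37 to 0.02, and 8 of the 9 differences were negative. The erythroid list mean was 6.26 to 6.71 on young and 6.06 to 6.13 on old arrays, with Gata1 dim at 4.14 ± 0.03 and 4.13 ± 0.07. Of 8 bone markers 3 fell, with list means of 7.98 to 8.51 and 6.86 to 7.69. The part of these cell types in the lower Kif23, Birc5, Cdt1, Mki67 and Nusap1 signals was not tested. The neutrophil, erythroid and bone means were all highest on young replicate 3. Of the 5 members that fell, Mki67 was highest there, and Birc5 by little (6.02, against 5.94 and 5.95). Cdt1 and Nusap1 were highest on young replicate 1 and Kif23 on young replicate 2. Whether such peaks go together was not tested. Of 10 markers of B cell precursors Rag1 and Blnk rose, while Vpreb1, Igll1, Dntt and Pax5 were dim and not called. In that list 6 of the 10 differences were negative, the lowest being that of Ebf1, a bright gene, at -0.52. All old values of Ebf1 lay below its young ones, and it was not called (limma adjusted p = 0.0971). Among 6 T cell markers Cd3g and Cd3d rose, by 1.41 and 0.44, and 1 of the 6 differences was negative, Cd4 at -0.07. The T cell list means were 5.90 to 6.04 on young and 6.27 to 6.40 on old arrays. Among 12 macrophage markers Cd68 and Lyz2 rose, by 1.16 and 1.56, and 3 of the 12 differences were negative. The negative ones were Cd163 at -0.33, Mrc1 at -0.32 and Csf1r at -0.08. The macrophage list means were 7.70 to 7.85 on young and 8.05 to 8.18 on old arrays. Of 5 Schwann cell markers Sox10 rose and Pmp22 fell, and 0 of 8 endothelial markers were called.

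**Figure D5:**
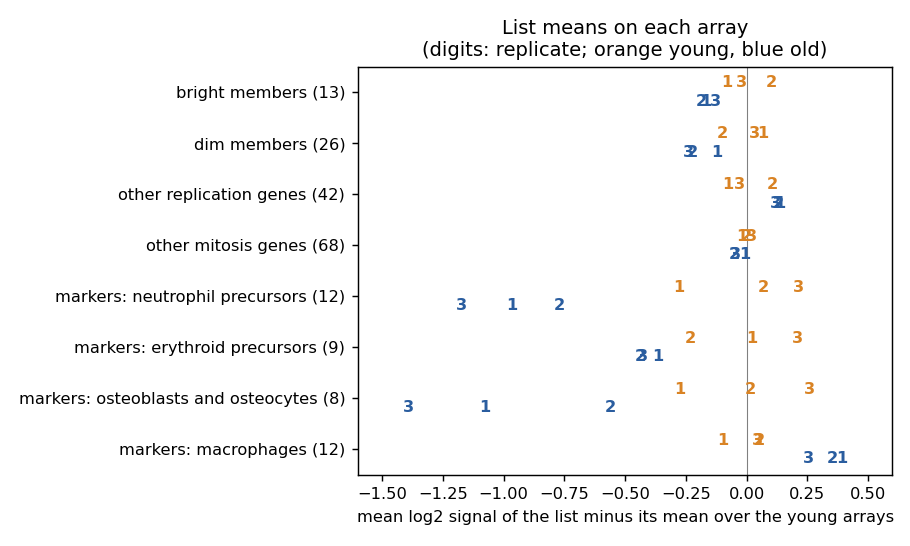
Mean log2 signal of gene lists on each array, as the distance from the list's mean over the young arrays (digits are replicate numbers, orange young, blue old, number of genes in brackets). The dim members and the neutrophil, erythroid and bone markers lie lower on old arrays, and the further replication genes and macrophage markers higher. For the further replication genes young replicate 2, with a mean of 7.88, came close to the old arrays at 7.89 to 7.91.

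The arrays had medians of 6.26 to 6.30. Young replicate 2 had a signal of 6.06 for Xist, below that array's median of 6.27, against 11.95 to 12.65 on the other 5 arrays. It also had the highest signals of Eif2s3y, Kdm5d and Uty, the pattern of mainly male tissue. The other 5 arrays carried both Xist and the Y-linked genes, so the sexes were not balanced between the age groups. Without young replicate 2, Kif23, Birc5, Cdt1 and Mki67 were still called lower and Nusap1 was not. The part of sex in the differences was not tested. The excess of 3′ over 5′ control signals for Gapdh, a measure of RNA integrity, was 1.07 to 1.25 on young and 1.26 to 1.45 on old arrays, without overlap. That for Actb overlapped, with 1.60, 1.53 and 1.46 on young and 1.39, 1.77 and 1.84 on old arrays. Their part in the differences was not tested.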

How the data were processed

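Total RNA of microdissected lateral wall was labelled with the Affymetrix 3′ IVT Express kit and hybridised with 1 sample per array, per the labels' protocols. Such kits start from the poly(A) tail and read mostly the 3′ end of a transcript. Per the submitters' processing notes, Expression Console from Affymetrix was used, with RMA and MAS5; which values come from which, and the versions, are not given in the sources used here. The authors deposited log2 signals for 45101 probe sets, of which 64 controls were dropped before testing. Background signal and scan batches could not be read from these values, and the number of arrays limits the precision. Scaling to near-equal medians would remove a shift common to most genes.

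Groups came from the labels. Probe sets were named through the platform annotation held by GEO: 34945 carried a single symbol, 932 carried several and stayed unnamed, and 9160 had no entry. Differences on the log2 scale were fitted in R 4.3.3 with limma 3.58.1 (lmFit, eBayes, age as the only term), with Benjamini-Hochberg adjustment across the 45037 probe sets that remained. The code was tested on simulated arrays. The members, roles, lists, motifs and the rule for named genes (called members, the highest and lowest bright member of each role, called genes of the lists) were chosen with earlier results of these data known. Members named outside it, such as Kif11, Ube2c, Rrm2, Cdc6 and Prc1, were chosen after their values were seen. Promoters are RefSeq windows. Alternatives were other normalizations, a filter on dim probe sets, variance and array weight settings, a replicate block, a stricter threshold, averaging over probe sets, and leaving out each array. Figures were drawn with matplotlib 3.10.9.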

Additional observations from a re-analysis of the deposited data

How the results depend on the processing

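The count of 5 members that fell stayed within 1.5 times of that number under quantile normalization again, median centring, cyclic loess, the intensity trend with robust variance and averaging over probe sets. It was 9 with array weights, 3 at an adjusted p of 0.01 and 3 of the 13 members tested when only probe sets above the median signal were kept. Kif23 passed that filter through its young arrays alone. Leaving out 1 array gave 3 to 5 called lower and 0 called higher. The count of members that rose, 0 at first, was 1 (Kif11) under quantile normalization again, median centring, cyclic loess and array weights. The median difference of the members, -0.05, was -0.10 with array weights and 0.037 over the bright members kept by the filter, and lay between -0.13 and -0.027 on leaving out 1 array. Kif23, Birc5 and Cdt1 were called under every alternative in which they were tested. The cause of the other changes was not tested, except that the filter tests fewer genes.

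Same-numbered young and old arrays had correlations of 0.14, 0.08 and 0.01 between their deviations from the group means, so the numbers were not taken as pairs. With the replicate block, 5 members were called lower and 0 higher, and the median difference was -0.05. Nusap1, Lig1, Tacc3 and Tfdp2 lost their calls under the block, Ube2c gained one, and 3 of the further replication genes were called higher in place of 2. Dim members are limited by signal near the lower end of the range, and signal over background was not examined.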
